A study of Mus musculus with 2 samples.

Results

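A group of CXC chemokines named for attracting neutrophils, together with the receptor CXCR2, was followed in bone marrow-derived dendritic cells of the mouse, called GMDC in the labels. The genes were chosen by name: 6 ligand genes (Cxcl1, Cxcl2, Cxcl3, Cxcl5, Ppbp and Pf4) and 1 receptor gene (Cxcr2), 7 of the 22180 genes that the array's platform annotation names singly. Each of the 7 had 1 probe set, out of 23521 singly named probe sets and 41345 in all, and all 7 passed the filter on low values. A gene was kept when the higher of its 2 log2 intensities reached 4.10, which is the median over every value on the 2 arrays. That left 13712 genes.

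The study compared 2 cultures with 1 array each. One was labelled as the control. The other was grown with conditioned medium of E0771, a mammary tumour cell line of the mouse, taken from cells treated with topotecan, a drug that blocks topoisomerase I. Mouse strain, age, dose, time in culture and the medium of the control culture are not stated in the labels. What the topotecan treatment did and what tumour-cell medium alone would do therefore cannot be told apart. With 1 array per condition there is no replicate error, so every difference below describes 2 arrays and carries no test.

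ELR chemokines take their name from the residues glutamate, leucine and arginine just before the CXC cysteine motif. They bind CXCR2 on neutrophils and draw these cells out of the blood toward sites of injury or infection. Dendritic cells and macrophages make several of them when Toll-like receptors or interleukin-1 receptors signal, and NF-kB is a main activator of their genes. PPBP and PF4 are best known as products of megakaryocytes, stored in platelet granules. PF4 lacks the ELR residues and binds glycosaminoglycans strongly. It is thus not one of the ELR ligands of CXCR2, though Pf4 is counted among the 7 members.

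The members split by gene. With conditioned medium Cxcl3, Cxcl2 and Cxcl5 were higher by at least 2-fold, Cxcl1 was higher by a little under that size, Ppbp and Pf4 were slightly lower, and Cxcr2 was lower by a little under 2-fold. Thus 3 of 7 were at least 2-fold higher, 0 at least 2-fold lower and 4 between, where the corresponding shares over all kept genes were 8.63% for higher and 6.84% for lower. After subtraction of a loess curve Cxcl1 had a log2 difference of 1.0, and 4 members then passed 2-fold. The share over all kept genes was not taken for that setting. The median log2 difference of the 7 was 0.96, against -0.07 over all kept genes.

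**Figure D1:**
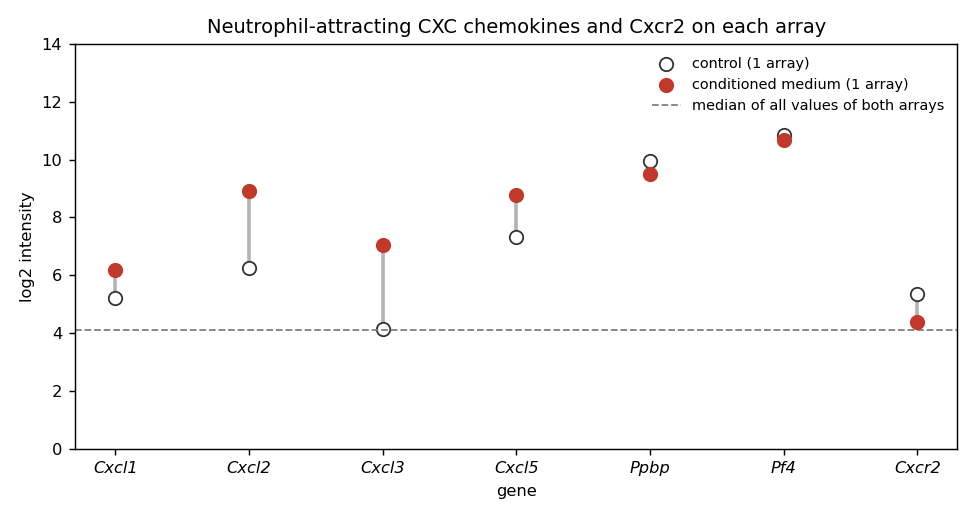
Log2 intensity (y axis) of each member gene (x axis) on the control array (open circles) and the conditioned-medium array (filled circles), with the filter level as a dashed line. Cxcl1, Cxcl2, Cxcl3 and Cxcl5 have the filled circle above the open one, from 0.96 to 2.89 on the log2 scale. Ppbp, Pf4 and Cxcr2 have it below.

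Cxcl3, one of the ELR ligands of CXCR2, had a log2 intensity of 4.16 in the control and 7.05 with conditioned medium. That is a log2 difference of 2.89, or 7.43-fold. Its control value lay just above the filter level, where signal may be background. Cxcl2, the ligand also known as MIP-2, went from 6.24 to 8.90, a log2 difference of 2.67 or 6.35-fold. The value of Cxcl2 was above the filter level on both arrays. Among the 13712 kept genes, Cxcl3 ranked 170 and Cxcl2 ranked 194 by difference from the highest, so 1.23% and 1.41% of kept genes had a larger upward difference.

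The ligand Cxcl1, also known as KC, had 5.22 in the control and 6.18 in the other culture, a log2 difference of 0.96 or 1.94-fold. Cxcl5, known as LIX, had 7.34 and 8.78, a log2 difference of 1.44 or 2.72-fold. These are closely related ligands of the same receptor, yet their differences were smaller than those of Cxcl2 and Cxcl3. The log2 difference of Cxcl2 exceeded that of Cxcl1 by 1.71 and that of Cxcl5 by 1.23. The corresponding gaps for Cxcl3 were 1.93 and 1.45. Between probe sets of one gene, log2 differences had a pooled SD of 0.46 (787 degrees of freedom, 652 genes). A gap between 2 probe sets then has an SD of 0.65, and the 4 gaps were 2.64, 1.89, 2.99 and 2.24 times as large, in the order given. Cxcl3 and Cxcl2 lay only 0.23 apart and Cxcl5 and Cxcl1 0.48 apart, both within that SD. This spread covers probe sets on the same arrays, not cultures. Genes of this family are similar in sequence, and signal shared between their probe sets was not tested.

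**Figure D2:**
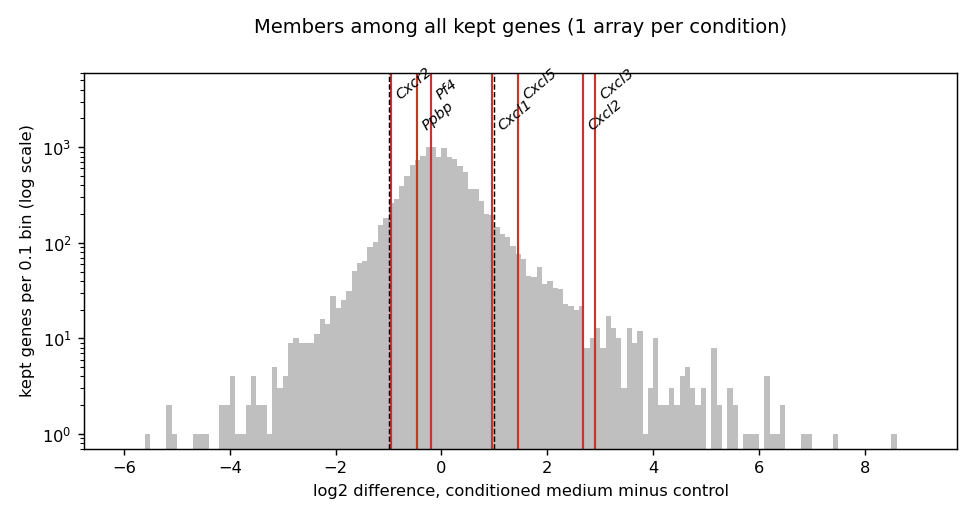
Number of kept genes (y axis, log scale) by log2 difference, conditioned medium minus control (x axis, bins of 0.1), with red lines at the 7 members and dashed lines at 2-fold. Cxcl2 and Cxcl3 lie in the upper tail at 2.67 and 2.89, and Pf4 (-0.19) and Ppbp (-0.45) lie in the bulk of the genes.

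The promoters of the 3 related genes Cxcl1, Cxcl2 and Cxcl3 are shown because each holds at least 1 match to a motif of the NF-kB type. The sequences are RefSeq's, assembly GRCm38.p6, from position -100 to position 20 about the annotated start of transcription, and all 3 lie on the plus strand. The windows are chr5:90891145-90891264, chr5:90903799-90903918 and chr5:90786001-90786120. Capitals mark matches, on either strand, to a kB-type motif (GGG, any 2 bases, then TTTCC) and to TATAAA. No match to the first motif overlaps one to the second.
Cxcl1: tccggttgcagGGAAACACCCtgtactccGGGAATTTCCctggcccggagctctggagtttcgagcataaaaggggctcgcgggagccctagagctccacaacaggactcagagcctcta
Cxcl2: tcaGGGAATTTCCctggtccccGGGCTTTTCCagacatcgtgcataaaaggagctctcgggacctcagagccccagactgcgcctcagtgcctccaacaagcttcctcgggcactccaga
Cxcl3: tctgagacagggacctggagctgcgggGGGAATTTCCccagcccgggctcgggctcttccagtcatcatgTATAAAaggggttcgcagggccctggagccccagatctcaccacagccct

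All 3 windows hold the same GGGAATTTCC, from -71 to -62 in Cxcl1, from -97 to -88 in Cxcl2 and from -73 to -64 in Cxcl3. A second match stands in Cxcl1 on the opposite strand, from -89 to -80, and another in Cxcl2, from -78 to -69. Cxcl3 has no second match. Whether the matches bear on the differences was not tested. Over all 32851 promoters of 300 bases in the table, 535 (1.63%) hold the kB-type motif on either strand, and 4473 (13.6%) hold TATAAA. A match describes letters and does not show that a factor binds. Of the 7 members, 6 had a promoter in the table; Cxcl5 did not.

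The promoters of the other 3 members with an entry are given as well, and hold no match to the kB-type motif in the full 300 bases. They run over the same positions, on the plus strand, at chr5:90768418-90768537, chr5:90772335-90772454 and chr1:74153894-74154013. Absence of these letters says nothing about other sites or more distant sequence.
Ppbp: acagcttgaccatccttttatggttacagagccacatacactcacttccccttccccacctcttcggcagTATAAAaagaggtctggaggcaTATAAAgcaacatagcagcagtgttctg
Pf4: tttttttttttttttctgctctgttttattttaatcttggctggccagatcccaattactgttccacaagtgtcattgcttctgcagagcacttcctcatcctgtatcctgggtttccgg
Cxcr2: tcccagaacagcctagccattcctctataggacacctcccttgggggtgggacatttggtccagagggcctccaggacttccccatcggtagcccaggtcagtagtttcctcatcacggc

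Ppbp, whose product is processed to the neutrophil-activating peptide NAP-2, had 9.97 on the control array and 9.51 on the other, a log2 difference of -0.45 or 1.37-fold lower. Its window has 2 matches to TATAAA, from -30 to -25 and from -8 to -3. Pf4, the platelet factor 4 gene, had 10.86 and 10.67, a log2 difference of -0.19 or 1.14-fold lower. Loess subtraction gave -0.31 for Ppbp and -0.04 for Pf4, and quantile normalization gave -0.54 and -0.15. Neither gene passed 2-fold under these settings, and both lay well above the filter level on each. Their differences were 1.63 to 3.35 below those of Cxcl2, Cxcl3 and Cxcl5. The gap to Cxcl1 was smaller, 1.41 for Ppbp and 1.15 for Pf4.

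Since Ppbp and Pf4 are classical megakaryocyte genes, other markers of that lineage are given beside them. Of 17 megakaryocyte and platelet markers measured, 14 were kept. The median was 0.29, with 3 past 2-fold upward, 1 downward and 10 between. Over all kept genes the shares past 2-fold were 8.63% upward and 6.84% downward, to be read beside this and each later list. Itga2b, which encodes the platelet integrin alpha IIb, had 4.90 in the control and 5.27 with conditioned medium. The platelet glycoprotein genes Gp9 (7.37 and 7.14) and Gp5 (4.14 and 4.38) were also near level. Past 2-fold upward were Alox12 (4.83 and 6.42), Nrgn (4.72 and 6.24) and Gp6 (4.97 and 6.14), and downward Treml1 (7.05 and 5.93). By sign, 9 of the 14 kept were higher and 5 lower. Summed over all 17 on the linear scale, the list's signal came to 917 on the control array and to 912 on the other. Genes that differed in opposite directions enter that sum. Tubb1, Mmrn1 and Rab27b lay under the filter level on both arrays. The part of such cells in the Ppbp and Pf4 signal was not tested.

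Cxcr2, the receptor for the ELR ligands, had 5.35 on the control array and 4.39 on the other, a log2 difference of -0.95 or 1.94-fold lower. The value with conditioned medium lay close to the filter level. Markers of neutrophils were mostly lower in that culture. Of 20 such markers 19 were kept, and 11 of them were at least 2-fold lower, 8 were between and 0 were at least 2-fold higher. By sign, 15 were lower and 4 higher. The lowest were the granule genes Camp (-5.54, or -4.47 against the filter level) and Ngp (-5.16). The highest were Csf3r (0.89) and Cebpe (0.80). Their median was -1.65. The list's summed linear signal came to 13152 on the control array and to 3882 on the other. Its S100a8 (12.16 and 10.53), S100a9 (11.77 and 9.57) and Ly6g (6.14 and 6.88) did not move alike. In bulk RNA, fewer cells of a type and less RNA per cell cannot be told apart, and the part of neutrophils in the Cxcr2 value was not tested. Cxcr1, the other receptor for such ligands, went the other way, with 4.11 and 5.18, a log2 difference of 1.07 or 2.10-fold. The control value of Cxcr1 lay at the filter level.

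The 6 ligand genes form 1 cluster on chromosome 5 of the RefSeq gene table, whereas Cxcr2 is on chromosome 1. Only 1 further gene, Cxcl15, lies between the first and the last of them. In chromosomal order the genes run Cxcl5, Ppbp, Pf4, Cxcl3, Cxcl15, Cxcl1 and Cxcl2. The upward differences were not in neighbouring genes throughout: Ppbp and Pf4 stand between Cxcl5 and Cxcl3. Cxcl15, the ELR chemokine called lungkine, was under the filter level on both arrays (3.41 and 3.89). Of the 5 protein-coding genes on each side, Alb, Afm, Albfm1, Rassf6, Epgn and Btc were under it too, and Areg had no singly named probe set. Afp (4.43 and 3.63), Mthfd2l (4.50 and 4.20) and Ereg (4.39 and 4.45) were kept, and 0 of these 3 passed 2-fold in either direction.

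**Figure D3:**
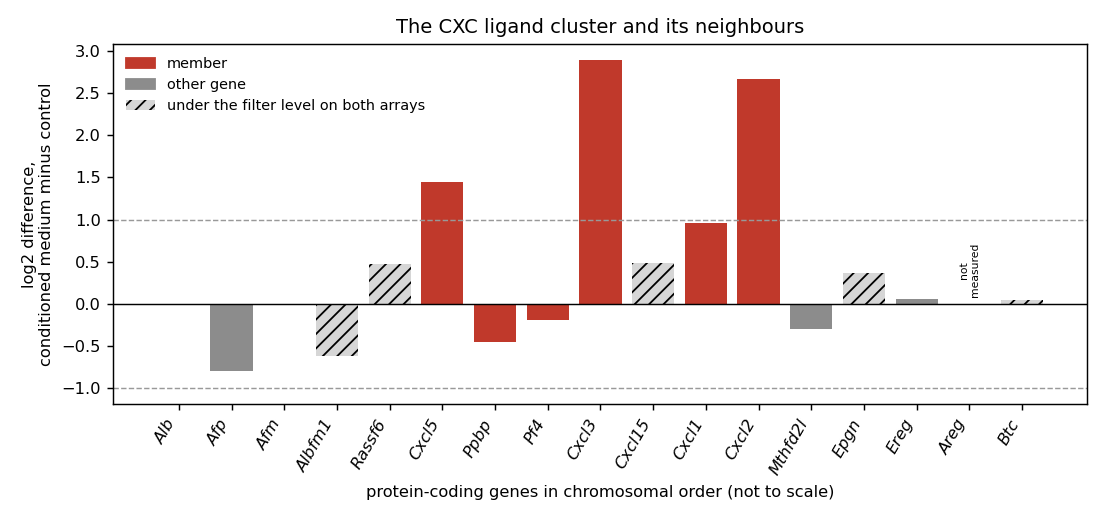
Log2 difference, conditioned medium minus control (y axis), of protein-coding genes in chromosomal order (x axis, not to scale), with members in red and hatched bars for genes under the filter level on both arrays. Alb and Afm have a difference of 0. Within the cluster Cxcl5, Cxcl3, Cxcl1 and Cxcl2 lie above 0, and Ppbp and Pf4 lie below.

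A further list joined an ELR ligand and a receptor, Cxcl15 and Cxcr1, with atypical chemokine receptors and Cxcl17, which are not all specific to ELR ligands. Of its 6 genes, all measured, 3 were kept. Cxcr1 was at least 2-fold higher, and Ackr3, an atypical receptor (4.06 and 4.71), and Cxcl17 (4.08 and 4.41) lay between. Cxcl15, the decoy receptor gene Ackr1 (3.46 and 3.89) and Ackr2 (4.06 and 3.95) lay under the filter level on both arrays. The control values of Ackr3 and Cxcl17 lay under that level too, so the conditioned-medium array alone kept them. The median of the 3 kept was 0.65, the value of Ackr3, which was 0.61 against the filter level.

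The remaining CXC chemokines were all measured and kept, and their median was 1.77. Of the 7, 5 passed 2-fold upward and 1 downward. The interferon-induced CXCR3 ligands Cxcl11 (log2 difference 6.43) and Cxcl10 (6.12) had the largest differences, far above those of any ELR ligand here. Cxcl12, a ligand of CXCR4, was 3.60-fold lower (6.48 and 4.63), and Cxcl13 had a log2 difference of -0.40. Of the other CXC receptors, 3 of 4 were kept. Cxcr3 was 2.48-fold higher, and Cxcr4 (-0.33) and Cxcr5 (-0.63, or -0.30 against the filter level) lay between. The median of those 3 was -0.33.

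A list on the induction of ELR chemokine genes held cytokines, receptors for them, an adaptor and transcription factors. Its genes were higher in part. The 20 kept genes had a median of 0.93, and 10 of them passed 2-fold upward, 0 downward. Against the filter level 8 of them passed, because Fos and Il17f lay under it in the control. Over all kept genes the shares against that level were 7.83% upward and 5.91% downward. Il1a (13.6-fold; 4.15 and 7.92) and Il1b (8.88-fold; 6.04 and 9.19), both interleukin-1 genes, were the highest, though the control value of Il1a lay just above the filter level, where signal may be background. The lowest were Il1r1 (-0.31) and Relb (-0.17). Genes of mRNA decay and feedback had a median of 0.51, and 3 of 13 passed 2-fold upward, 0 downward. Dusp1, a MAP kinase phosphatase (4.69-fold), and Nfkbia, the inhibitor of NF-kB (4.44-fold), were the highest. Zfp36l2 (-0.93, or -0.50 against the filter level) and Hnrnpd (-0.15) were the lowest.

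Genes that act downstream of CXCR2 did not differ in one direction. The 20 kept genes had a median of -0.04; 4 passed 2-fold upward and 1 downward. Rgs1, a regulator of G-protein signalling (4.66-fold), and the Src family kinase gene Fgr (2.55-fold) were the highest. Arrb2, which encodes beta-arrestin 2, a protein of receptor desensitisation, was 4.03-fold lower (9.48 and 7.47), and the G-protein subunit gene Gng2 had a log2 difference of -0.89.

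Among the glycosaminoglycan and granule partners of PF4 and PPBP, the median of the 11 kept genes was -0.11, and 3 passed 2-fold upward and 2 downward. Sdc4, a heparan sulphate proteoglycan (3.11-fold), and Srgn, the granule proteoglycan serglycin (2.68-fold), were the highest. The proteases Ctsg (17.5-fold lower) and Prtn3 (3.22-fold lower) were the lowest, and both also stand in the neutrophil list.

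Other neutrophil attractants and their receptors had a median of 0.28. Among the 17 kept, 4 passed 2-fold upward and 3 downward, while Csf3, the gene of the growth factor G-CSF, was under the filter level on both arrays (3.40 and 3.58). Fpr2, a formyl peptide receptor (9.30-fold; 8.48 and 11.70), and the chemokine Ccl4 (6.23-fold) were the highest. S100a9 (4.60-fold lower) and C5ar1, the receptor for complement C5a (3.89-fold lower; 7.54 and 5.59), were the lowest. The 10 kept neutrophil adhesion genes had a median of 0.94, with 5 past 2-fold upward and 0 downward. F11r, the junctional adhesion molecule A gene (24.6-fold), and Icam1 (3.48-fold) were the highest. The integrin chain gene Itgb2 (-0.17) and Sele (-0.16, or -0.04 against the filter level) were the lowest.

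**Figure D4:**
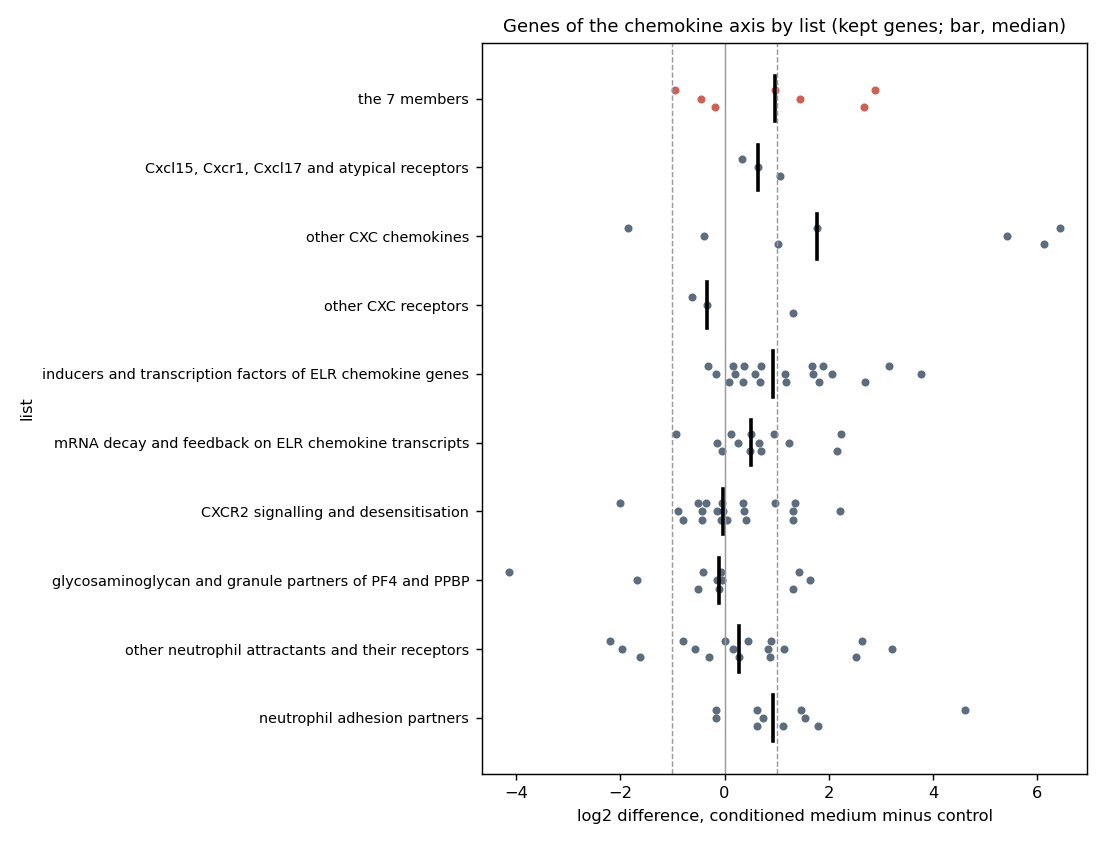
Log2 difference, conditioned medium minus control (x axis), of each kept gene in the 7 members and 9 lists of the chemokine axis (y axis), with a black bar at each median and dashed lines at 2-fold. Medians run from -0.33 for the other CXC receptors to 1.77 for the other CXC chemokines, and the 7 members stand at 0.96.

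The labelled cell type and other possible cell types were checked with marker lists. Of 13 kept dendritic cell markers, 4 passed 2-fold upward and 4 downward, around a median of -0.17. The 4 upward were Dpp4 (4.41 and 6.66), the class II chain genes H2-Aa (9.06 and 10.94) and H2-Ab1 (10.16 and 11.30), and Irf4 (4.48 and 6.30). The 4 downward were Batf3 (7.30 and 5.27), Clec10a (7.53 and 5.52), Itgax and Flt3. Itgax, which encodes CD11c, had 8.18 and 7.15, Flt3 had 4.38 and 3.15, and Zbtb46, a defining factor of conventional dendritic cells, lay under the filter level on both arrays at 3.65. Against that level Flt3 differed by -0.28, and 3 markers passed downward. Macrophage and monocyte markers were present as well: Adgre1 (9.16 and 6.87), Csf1r (8.58 and 5.66) and Mrc1 (9.75 and 7.01) were each lower with conditioned medium, and in all 4 of 15 passed 2-fold downward and 1 upward. The list's median was -0.19: C1qa (9.69 and 9.50), Cd14 (10.51 and 10.37) and Mertk (5.66 and 5.60) differed little, and Ly6c2 (10.76 and 11.95) was the upward gene. Summed linear signal was 3954 and 5852 for the dendritic cell list, and 15604 and 16831 for the macrophage list. Most of the dendritic cell sum with conditioned medium came from H2-Aa and H2-Ab1. By sign, 6 of the 13 kept dendritic cell markers were higher and 7 lower. In the macrophage list 12 of 15 were lower, and only Ly6c2, Cd68 (12.13 and 12.37) and C1qb (11.71 and 11.97) were higher.

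Of 15 mammary tumour epithelial and stromal markers measured, 8 lay under the filter level on both arrays, among them Epcam (2.67 and 3.24) and Krt18 (3.51 and 3.30), whereas Krt8 had 4.96 and 4.77. Among the 7 kept, 3 passed 2-fold upward and 0 downward. These 3 were the proteoglycan gene Dcn (3.96 and 7.98), the E-cadherin gene Cdh1 (6.42 and 10.21) and the keratin gene Krt19 (4.44 and 6.59). Cdh1 had a log2 difference of 3.79, and of 2.17 as the mean of its 2 probe sets. The summed signal was 3351 and 3657, and most of it on each array came from Col1a2 (11.51 and 10.88), a collagen gene. Mast cell and basophil markers had 1 of 7 kept genes past 2-fold upward and 3 downward, with a summed signal of 725 and 456. Against the filter level 2 passed downward, since Fcer1a (4.39 and 3.09) no longer did. The upward gene, Hdc (3.12 and 6.06), lay under that level in the control. Their Cpa3 had 6.52 and 3.72, Mcpt8 8.37 and 7.85, and Prss34 7.61 and 6.25. The part of any of these cell types in the chemokine values was not tested.

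**Figure D5:**
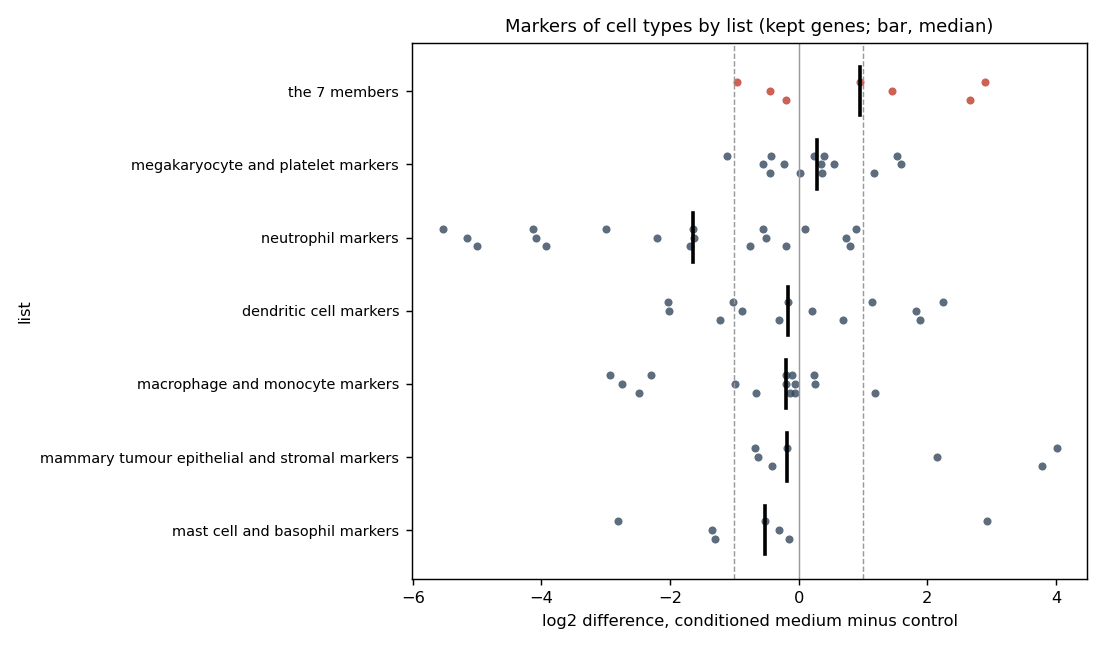
Log2 difference, conditioned medium minus control (x axis), of each kept gene in the 7 members and 6 lists of cell type markers (y axis), with a black bar at each median and dashed lines at 2-fold. The neutrophil list has the lowest median, -1.65, and the megakaryocyte list stands at 0.29.

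By closeness of the log2 values on both arrays, the kept genes nearest to Cxcl3 were Tnfsf15 (4.20 and 7.06), Galnt3 (4.24 and 6.98) and Tnp2 (4.04 and 7.17), at Euclidean distances of 0.043, 0.11 and 0.16. Those nearest to Cxcr2 were Acss2, Mms22l and Prkch, at distances of 0.023, 0.036 and 0.040. Brightness depends on the probe, so over 2 arrays this likeness describes the pair of values only.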

How the data were processed

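RNA of 2 cultures was measured on oligonucleotide arrays, 1 array per condition, from Trizol-extracted total RNA labelled as biotinylated cRNA, per the labels' protocols. The authors deposited a table of probe set values, which are read as log2 intensity because of their range. Affymetrix Expression Console made them, per the submitters' processing notes; no version, summarisation, normalization or genome build is given in the sources used here. Array medians were 4.10 and 4.09. Arrays scaled so alike cannot show a general rise or fall. The number of arrays limits the precision.

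Gene names came from the platform annotation, using probe sets with 1 symbol; all 7 members were found by gene identifier, with the same symbol, in RefSeq's table of GRCm38.p6. A gene stood for its probe set with the highest mean, and was kept when the higher value reached the median of all values (4.10). Differences are conditioned medium minus control. No test was possible, and genes were counted at a size of 2-fold. The named genes were the members, the kept genes of the list with Cxcl15, Cxcr1, Cxcl17 and atypical receptors, the 2 highest and 2 lowest kept genes of each other list, the first 3 measured genes of each marker list, the cluster's neighbours and the 3 genes nearest in value to the highest and lowest member. Fos, Il17f, Csf3, Tubb1, Mmrn1, Rab27b, Ackr1, Ackr2, Dpp4, H2-Aa, H2-Ab1, Irf4, C1qa, Cd14, Mertk, Ly6c2, Dcn, Cdh1, Krt19, Col1a2, Fcer1a and Hdc were named after their values were seen. So were Batf3, Clec10a, Cd68, C1qb, Camp, Ngp, Csf3r, Cebpe, Alox12, Nrgn, Gp6 and Treml1. Members and lists were chosen with earlier results of these data known. The counting was tested on simulated data. Alternatives were quantile normalization, loess subtraction (fraction 0.3, 3 iterations), centring, mean of probe sets, values raised to the filter level, other filters and thresholds of 1.5-fold and 3-fold. Python 3.11.15, numpy 2.4.6, pandas 2.3.3, statsmodels 0.14.6 and matplotlib 3.10.9 were used.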

Additional observations from a re-analysis of the deposited data

How the results depend on the processing

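Each of the 7 members kept the sign of its log2 difference under quantile normalization and loess subtraction. Centring moved every gene alike, and the mean of probe sets and the floor could not change a member, since each had 1 probe set and lay above the filter level on both arrays. The ranges were 0.94 to 1.0 for Cxcl1, 2.61 to 2.78 for Cxcl2, 2.89 to 2.94 for Cxcl3, 1.40 to 1.56 for Cxcl5, -0.54 to -0.31 for Ppbp, -0.19 to -0.04 for Pf4 and -0.96 to -0.93 for Cxcr2. The count of members at least 2-fold higher was 3 as reported, 4 after loess subtraction, 4 at a threshold of 1.5-fold and 2 at 3-fold. The count of members lower was 0 as reported and 1, Cxcr2, at 1.5-fold. The shares over all kept genes, 8.63% higher and 6.84% lower, hold for 2-fold as reported. None was taken after loess subtraction, at 1.5-fold or at 3-fold, so those member counts have no share beside them. A stricter filter at the 75th percentile of all values, 5.48, dropped Cxcr2, whose higher value was 5.35. Of the 103 kept genes of the pathway lists together, 35 were at least 2-fold higher and 7 lower as reported. Over 8 alternatives 32 to 37 were higher and 7 lower. Over every other gene of the lists, the cluster's neighbours and the nearest genes, named in the text or not, 23 of 1055 values moved by more than 0.46, and 0 of the differences past 2-fold changed sign. Many of these values could not move so far. Centring shifted every gene by far less than 0.46, and the mean of probe sets leaves a gene with 1 probe set as it was. Values raised to the filter level can shrink a difference but cannot reverse it. No paired analysis was possible because each condition had 1 array.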
